A study of Mus musculus with 3 samples.

Results

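The high-copy windows of the input chromatin of Oct1 deficient mouse ESCs were fixed 1-kb windows of the mm10 genome in which more than 500 alignments of the input lay. They were chosen by that count of lines in the deposited input, so their line counts describe the choice and were not tested. Each line is 1 aligned read, or an aligned part of a split read, placed by its midpoint. There were 272 of them among the 2725532 windows on the numbered chromosomes, X and Y. The study made HBO1 ChIP-seq from these cells, which are deficient in Oct1, a paralog of Oct4 that Pou2f1 encodes. The cells of all 3 samples were grown with the GSK3b inhibitor CHIR99021 at 3 µM, a MEK inhibitor labelled PD03259010 at 1 µM and ascorbic acid, and were fixed with 1% formaldehyde. There were 2 HBO1 ChIP samples, of which the second has its antibody labelled HBO2 and is titled HBO1, and 1 input sample, sheared chromatin that was not immunoprecipitated. HBO1 peaks were deposited as 1 list, with no statement of how the ChIP samples were combined or whether the input served as the control of the peak caller. A list of HBO1 peaks that the study gives has WT ESCs in its heading, whereas every sample here is labelled Oct1 deficient, and the labels were followed without a check of genotype. The input therefore has no replicate, and its values below describe 1 library, with intervals that cover counting error only, while peak values come from that 1 list.

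Input chromatin follows the amount of each DNA sequence in the cells, together with how well it shears, amplifies and aligns. Genomes hold sequences in many copies that an assembly shows in few: the satellite arrays at centromeres, where major satellite forms the pericentromeric heterochromatin of the mouse and minor satellite carries the centromere, the hexamer repeats of telomeres, and the tandem genes for ribosomal RNA. An aligner gives a low mapping quality to a read with several equally good positions. The pseudoautosomal region, in which X and Y share sequence and recombine, lies at one end of both chromosomes and is crossed by Mid1, an E3 ubiquitin ligase gene, in laboratory mice.

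The windows differed in the sequence they held in the reference, and the following stretches show the repeats that carried most of their lines. Positions are those of GRCm38, the assembly that mm10 names, from which all sequences were read. The 39 windows at the start of the assembled sequence of chromosome 9 held repeats of a unit of 234 bp, the length known for mouse major satellite. In 32 of them the shift named for the best self-match was 234 bp. In 14 at least 75% of bases matched at the best shift, and 517 to 970 bases of each were covered by 15-mers of the unit. The shift named for a window is the smallest whose match came close to the highest, while the percentage is the highest itself. The unit below is from the window with the most lines, chr9:3024001-3024234 on the plus strand. The copy on chromosome 2, chr2:98667081-98667314 on the minus strand, lies in the window with the most lines of the genome. Its capitals mark the 12 positions that differ from the unit of chromosome 9, an identity of 94.9%.
Chromosome 9 unit: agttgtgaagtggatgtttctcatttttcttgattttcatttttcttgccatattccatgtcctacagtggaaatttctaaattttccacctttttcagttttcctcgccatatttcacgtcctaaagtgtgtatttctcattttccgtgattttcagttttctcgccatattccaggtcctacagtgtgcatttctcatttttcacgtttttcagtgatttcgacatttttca
Chromosome 2 copy: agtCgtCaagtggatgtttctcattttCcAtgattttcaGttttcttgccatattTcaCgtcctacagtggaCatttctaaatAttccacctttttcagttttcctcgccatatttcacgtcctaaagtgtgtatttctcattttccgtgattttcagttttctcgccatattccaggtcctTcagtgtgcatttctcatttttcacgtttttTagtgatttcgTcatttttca

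A second unit, of 120 bp, the length known for minor satellite, was found in windows of the same k-mer family. It is shown because its lines lay where no 234-bp unit did. The stretch below is chr2:98665061-98665195 on the plus strand, and the capitals mark matches to the CENP-B box, the site bound by the centromere protein CENP-B, written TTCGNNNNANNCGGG and searched on both strands.
Chromosome 2 stretch: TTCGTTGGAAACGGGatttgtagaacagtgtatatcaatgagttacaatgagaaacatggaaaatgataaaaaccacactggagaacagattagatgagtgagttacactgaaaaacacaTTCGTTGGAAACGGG

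Ribosomal DNA and a small RNA gene in tandem copies follow, shown because each gives its name to a group of windows below. The first is the start of Rn18s-rs5, an 18S ribosomal RNA gene copy, chr17:39846354-39846453 on the plus strand. The second is Rn4.5s, chr6:47654921-47655094 on the minus strand, which RNA polymerase III transcribes in rodents. Its capitals mark the 14 positions that differ in any of the copies counted in and around its array.
Rn18s-rs5 start: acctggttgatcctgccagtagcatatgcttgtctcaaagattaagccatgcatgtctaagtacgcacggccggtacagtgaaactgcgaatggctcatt
Rn4.5s: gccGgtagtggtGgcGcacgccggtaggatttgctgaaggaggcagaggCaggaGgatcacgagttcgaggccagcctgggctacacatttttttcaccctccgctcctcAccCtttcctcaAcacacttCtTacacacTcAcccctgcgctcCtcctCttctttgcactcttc

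Shorter repeat units were found at the ends of X and Y and in a cluster on chromosome 17. They are shown because each recurred in a group of windows that shared 31-mers. The first is chrX:169999848-169999940, the second chrY:90788059-90788193 and the third chr17:13552349-13552408, all on the plus strand, with the first unit in capitals. The chromosome 17 stretch matched itself at 81.8% of bases, and no window of that cluster reached 75% over its whole length.
X/Y 31-bp unit: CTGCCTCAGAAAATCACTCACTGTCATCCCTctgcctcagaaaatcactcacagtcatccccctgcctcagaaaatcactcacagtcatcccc
X/Y 45-bp unit: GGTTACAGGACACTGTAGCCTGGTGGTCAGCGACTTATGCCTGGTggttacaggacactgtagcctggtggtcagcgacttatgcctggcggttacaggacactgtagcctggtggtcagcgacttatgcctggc
Chromosome 17 5-bp unit: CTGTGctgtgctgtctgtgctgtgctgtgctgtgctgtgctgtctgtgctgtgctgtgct

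Together the 272 windows held 16487532 of the 31973678 input lines, or 51.6% (exact binomial 95% confidence interval 51.5 to 51.6%), in 0.00998% of the windows. Intervals on lines count each as independent, which both mates of a pair and repeated positions are not, so they are too narrow. Counted from lines of mapping quality 20 or more alone, windows over 500 held 37.5% of such lines, and with identical positions counted once they held 9.13%. The lines of a window ran from 503 to 4685739 with a median of 1181.5, against a median of 2 over all windows of the genome and 29.0% of windows with none. Few windows held most of the lines. The 2 highest held 47.5% of the lines in high-copy windows, the 10 highest 80.8% and the 50 highest 97.4%, while 125 of the windows had fewer than 1000 lines. Around the limit of 500 lines the values were continuous. The lowest inside were 503 and 506 at the end of chromosome Y and 507 on chromosome 5, and the highest outside were 499 on chromosome 13 and 498 on chromosome 1. There were 20 windows at most 50 lines above the limit and 25 at or fewer than 50 below it.

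The windows fell on all 21 chromosomes and formed 92 loci when those within 10 kb of each other were joined. Of these loci 60 were single windows and 11 held 5 windows or more. Chromosome 9 had 48 of the windows, chromosome 6 had 45, Y had 38 and X and chromosome 11 had 26 each. By lines, chromosome 2 held 49.2% of all lines in these windows and chromosome 9 held 43.3%. Exons of GENCODE vM21 genes lay in 94 of the windows, and 121 had no gene. Unknown bases, which stand for assembly gaps, lay within 10 kb of 56 windows.

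By shared reference sequence and position the windows were sorted into 10 groups, which were set after the windows had been seen. The satellite family held 53 windows and 96.8% of the lines of the high-copy windows, or 49.9% of the whole input. The X/Y end family held 50 windows, the Rn4.5s array of chromosome 6 held 27, the Sfi1 locus of chromosome 11 held 22 and the telomere hexamers 18. A second family of chromosome 6 held 12 windows, the 5-bp repeat family 9, the largest set of windows linked to each other by reads 7, and the ribosomal DNA of chromosome 17 held 6. The other 68 windows lay at 46 loci. None of the groups except the satellite family reached 0.5% of the input, and the largest of them by lines were the other windows, with 0.427%, and the telomere windows, with 0.318%. Of the 136391 lines of the other windows, 41392 lay in 1 window, chr12:3110001-3111000, which adjoins a satellite window.

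**Figure D1:**
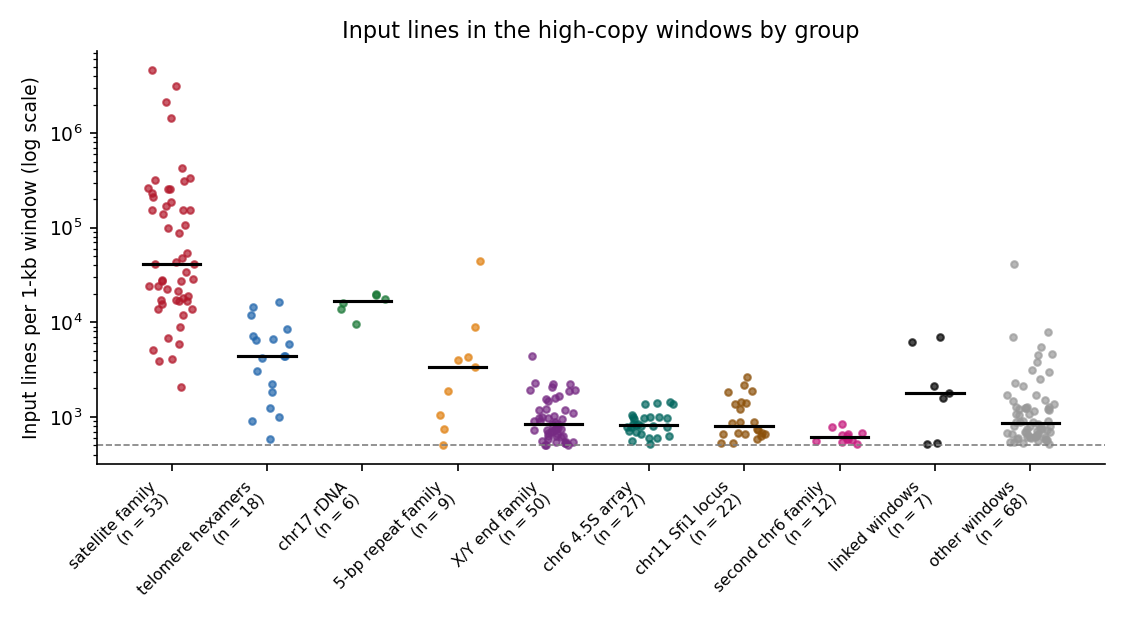
Input lines per 1-kb window (log scale) for the 272 high-copy windows by group, 1 point per window, with a bar at the median of each group and a dashed line at the limit of 500. The 4 windows with the most lines are of the satellite family, whose median is 40831, and the ribosomal DNA windows form a tight group between 9573 and 19921.

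The satellite family contained all of the 20 windows with the most lines, which ran from 107795 lines upwards. The highest were 98667001 to 98668000 on chromosome 2 with 4685739 lines, 14.7% of the input, and the window before it with 3145170. Both touch exons of Gm10800, a predicted gene with no known role. In the 5 windows of that locus, chr2:98662001-98668000, there were 8102274 lines, of which the windows over Gm10801, another predicted gene, held 237376. Next came the chromosome 9 array, chr9:3000001-3039000, with 6824151 lines in 39 adjoining windows. Along it the lincRNA gene Gm26870 covers all 39 windows, and several predicted genes lie inside it. The window with 2118901 lines lies at Gm10718, that with 1457080 at Gm10722 and those of Gm11168 sum to 644020. Gm10719 has 5 windows with 678608 lines, Gm10717 has 9 with 313296, Gm10721 has 2 with 289233, Gm10720 has 3 with 208441 and Gm10715 has 3 with 32534. Windows that touch neighbouring genes were counted for each. The lines of the windows of this array ran from 4050 to 2118901, a ratio of 523, with a median of 28948.

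Smaller loci of the family lay elsewhere. The window chr12:3109001-3110000, 21960 bp from Gm9075, had 335734 lines. Chr9:35305001-35306000, in an intron of the lincRNA gene Gm33838, had 313794. On chromosome 14 the 5 windows from 19415001 to 19420000 had 272847, of which 270766 lay in the 4 windows of Gm21738. Chr6:103649001-103650000 in Chl1, a neural cell adhesion gene, had 100322, and chr13:77438001-77439000 had 5051. The window with the most lines of each locus was aligned locally to the 234-bp unit. That of the chromosome 9 array matched over 1000 bp at 95.8% identity, that of chromosome 14 over 991 bp at 86.5%, and that of chromosome 2 over 299 bp at 94.0%. Other windows of a locus could match better, as chr2:98666001-98667000 did, over 456 bp at 94.1%. Chromosome 12 matched over 129 bp at 98.4%. Across the genome 43 windows held at least 500 bases covered by 15-mers of this unit, and all 43 were high-copy windows. The 15-mers were taken from the chromosome 9 array, whose 39 windows, with 517 to 970 such bases, are among the 43. For those windows the count is therefore not independent of the choice. With at least 100 such bases there were 120 windows, of which 52 were high-copy, and the highest of the rest had 445 lines. Of all bases covered by these 15-mers, 33.5% lay in high-copy windows.

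Within most satellite windows the unit held a larger share of lines than of bases. That was so in 48 of the 53 windows, while in 3 windows of the chromosome 9 array the share of lines was lower and 2 windows held no unit base. In the chromosome 9 array the median window was 88.6% unit-like by bases and 97.9% by lines, and in the 14 windows elsewhere the medians were 32.4% and 92.0%. A single stretch of 50 bp held a median of 35.4% of the lines of a window. In the top window of chromosome 2, 32.1% of bases were unit-like and 98.2% of lines lay on them. The unit matched itself best at a shift of 58 bp, with 60.3% of bases.

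Matches to the CENP-B box lay in 583 windows of the genome, or 0.0214%, and 6 of them were high-copy windows. Of those, 4 were of the satellite family: chr2:98662001-98663000 and chr2:98665001-98666000 with 2 matches each, and chr2:98666001-98667000 and chr6:103649001-103650000 with 1 each. Where there were 2 matches they started 120 bp apart. The others were in windows of the X/Y end family, with 1 match on X and 1 on Y. The windows starting at 98665001 on chromosome 2 and at 103649001 on chromosome 6 held no base covered by the 234-bp unit. They aligned to the 120-bp unit instead, over 222 bp at 98.2% identity and over 244 bp at 96.7%. Among the other windows, chrX:143483001-143484000 aligned to that unit over 105 bp at 95.2%. Lines on 120-bp unit-like bases numbered 241148, or 1.51% of the lines of the satellite family.

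**Figure D2:**
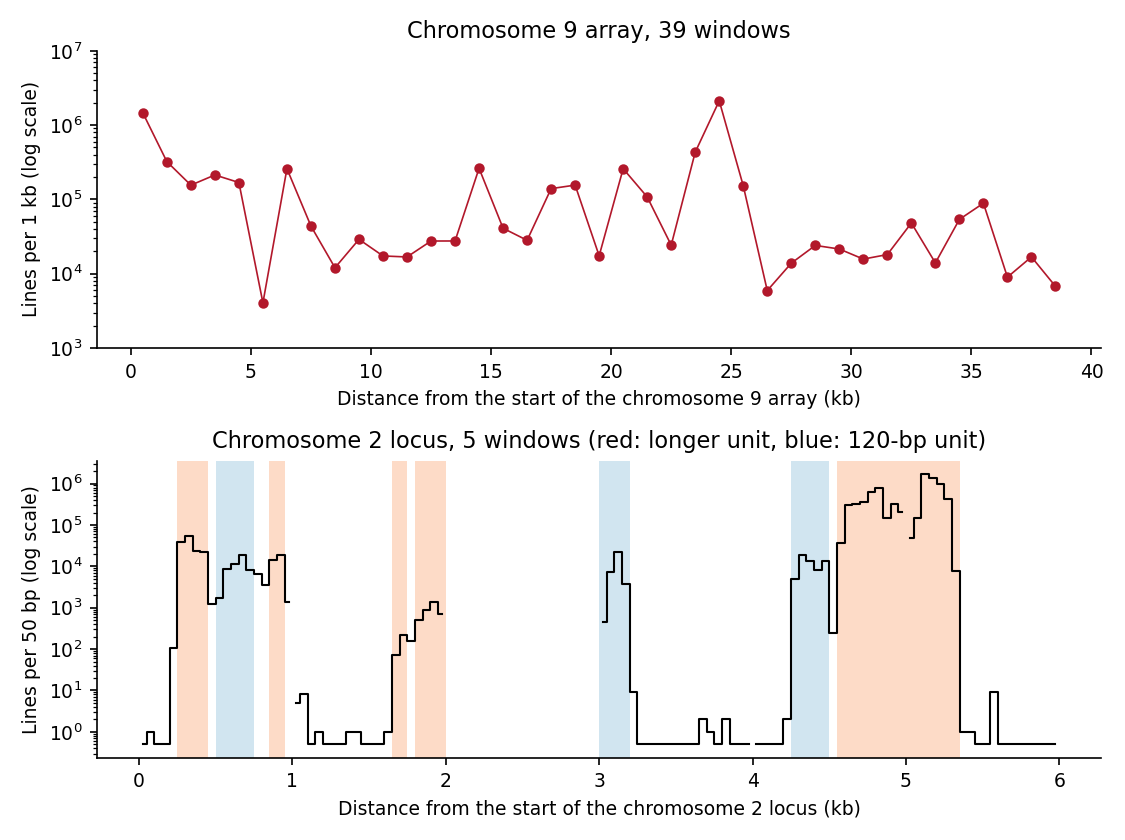
Upper panel: input lines per 1-kb window (log scale) against distance from the start of the chromosome 9 array, 1 point per window, with 4050 lines at the lowest of 39 and 2118901 at the highest. Lower panel: lines per 50 bp (log scale, bins without lines drawn at 0.5) along the 5 windows of the chromosome 2 locus, with bins that are mostly 234-bp unit-like in red and mostly 120-bp unit-like in blue. The line counts step by orders of magnitude at many edges of the shaded stretches but not at all of them. Where the first blue stretch ends, they change only from 8213 to 6604. The gap is a window below the limit.

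Telomere hexamers, TTAGGG or its complement CCCTAA, occurred at least 30 times in 51 windows of the genome. Of those windows 18 were high-copy, with 589 to 16491 lines and a median of 4389.5. The 33 others had at most 391 lines with a median of 25. Position separated them. Within 200 kb of the end of the assembled chromosome lay 16 of the 51 windows, of which 15 were high-copy, while 32 of the 33 others lay farther in, as did 3 of the high-copy ones. The highest were chr12:120028001-120029000 with 16491 lines and chr7:145341001-145342000 with 14663, near the ends of their chromosomes. None of the 553 windows with 10 to 29 hexamers was high-copy.

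Ribosomal DNA appeared as 6 adjoining windows, chr17:39843001-39849000, with 9573 to 19921 lines. They are the windows of 1 locus. A full ribosomal DNA unit was not used here, so whether windows elsewhere also hold parts of it was not tested. The window starting at 39848001 shared 44 bp with the window chr16:17222001-17223000. GENCODE places the rRNA gene CT010467.1 over 3 of them with 39316 lines, together with the lincRNA gene Gm42418 on the same windows. The lincRNA gene Gm26917, which ends just before it, has 4 windows with 71049 lines. Against the median of all windows of the same GC content, taken in classes of 2%, these windows had a median of 183 times the lines. That ratio was 40831 for the satellite family, 598 for telomere windows and 26.3 for the X/Y end family. It was 10.5 for the Rn4.5s array and 9.56 for the second family of chromosome 6. High ratios follow from the choice of windows by lines, and the divisor varied too. The window at the satellite median had 40831 lines over a divisor of 1. The Rn4.5s window with the ratio of 10.5 had 1000 lines over 95. The order of the groups by this ratio therefore mixes both values and was not tested.

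Reads linked further windows to each other. Among windows in none of the other named groups, loci joined by at least 20 read pairs or split reads formed sets, and the largest set, of 7 windows, is called the linked windows. They lay at 6 loci on chromosomes 9, 11, 13, 16 and X, among them the window of the miRNA gene Mir6236, an intron of Jarid2 (a subunit of the Polycomb repressive complex) and introns of Cmss1 and Filip1l. Between Mir6236 on chromosome 9 and Jarid2 on chromosome 13, the mates of 289 read pairs were split, and 327 single reads aligned in part to both loci. A smaller set, counted with the other windows, joined chr3:5860001-5861000 to a window in an intron of Gphn on chromosome 12 by 188 read pairs and to chr16:17222001-17223000 by 60. The reference sequence was searched for shared stretches in 25 windows, which were the linked windows, ribosomal DNA and the other windows with over 2.5 lines per distinct position. The longest was 141 bp, at chr13:9834374-9834514 on the plus strand. It recurs on the opposite strand in the window starting at 11144001 on chromosome 16, in an intron of Zc3h7a, and is shown because a read wholly within it would match both windows equally. Both are among the other windows, and neither locus was joined to another by 20 or more read pairs or split reads. Among the linked windows the longest was 79 bp, between Jarid2 and the window of Cmss1.
Shared stretch: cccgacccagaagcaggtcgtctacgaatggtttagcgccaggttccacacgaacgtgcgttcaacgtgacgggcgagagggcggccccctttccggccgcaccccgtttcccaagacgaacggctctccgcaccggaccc

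The 5-bp repeat family lay mainly on chromosome 17, where 4 adjoining windows, chr17:13550001-13554000, held 61938 lines. Introns of the lincRNA genes 2700054A10Rik and AC174800.1 cover all 4. The window starting at 13552001 alone had 44758 lines. Introns of Smo, the transducer of Hedgehog signals, had 4096 lines in 2 windows that shared its 31-mers. Among the other windows, those with a tandem unit of 44 bp at chr4:118547001-118549000 had 7895 and 4573 lines. On chromosome 9 the 3 windows from 121929001 to 121932000 had 804, 1715 and 1511 lines, and 31-mers of the middle one occur in a median of 3811.5 copies. For the middle window the highest self-match was 100% of bases and for the last 96.3%, each with a named shift of 4 bp. For the first it was 69.2%, with a named shift of 8 bp. Muc19, which encodes a gel-forming mucin, had 3 windows with 2316 lines, and Duxf3, the copy of Dux that activates genes of the cleavage-stage embryo, had 2 with 2071.

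The Sfi1 locus and the X/Y end family had lower counts in longer blocks. Sfi1, which encodes a centrin-binding protein of the centrosome, had 18 windows with 20519 lines, from 535 in its lowest to 2646 in its highest, and its neighbour Pisd-ps1, a pseudogene, had 3 with 2593. At the X/Y ends there were 22 windows on X with 24425 lines and 23 on Y with 22215. Mid1 had 13 of these on X with 15818 lines, Gm21887 had 9 with 8607, and Gm47283 on Y had 14 with 11770, of which 2 were grouped with the other windows. The windows of X and of Y shared 10609 distinct 31-mers, which were 70.3% of the 15086 on X and 67.6% of the 15686 on Y. Windows on chromosomes 9 and 13 were joined to the same family by fewer shared sequences: 10.4% of their 31-mers were in its windows on X or Y. All of these shares compare high-copy windows of the family only, not whole chromosomes. Those of chromosome 13, in introns of the transmembrane protein gene Tmem267, held 6027 lines in 3 windows.

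Copies of Rn4.5s were counted at 90% identity or more over its 174 bp, only in the array of chromosome 6 and its flanks. That stretch was set by the high-copy windows of the array, and copies elsewhere were not searched for. In it there were 13 copies, all on the minus strand, 11 of them identical, with a median spacing of 4339 bp. Of the 13, 12 overlapped a high-copy window. The 27 windows of the array had 523 to 1428 lines with a median of 825. Their 31-mers occurred in the reference a median of 16 times, and no GENCODE gene lay in them. The second family of chromosome 6 lay between 114499001 and 114630000, at 5 loci without a GENCODE gene, and its 12 windows had 515 to 843 lines. Its 31-mers occurred a median of 49.5 times in the reference.

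Mapping quality was not used to choose the windows. In high-copy windows 49.95% of lines had a mapping quality of at least 20 (95% confidence interval 49.93 to 49.97%), against 88.3% in the other windows of the same chromosomes. With identical positions counted once it was 29.2%. The highest value that the aligner gave, 70, was reached by 6.15% of lines in high-copy windows and 84.1% elsewhere. A mapping quality of 0 was held by 5.54% of lines in high-copy windows in sum and by 6.36% elsewhere. By window it ranged widely, with a median of 2.38% and over 50% in 50 windows. The median window was at 85.01% for telomere hexamers, 66.7% for the Rn4.5s array, 52.0% for the second family of chromosome 6 and 19.5% for the satellite family. Between windows the share at 20 or more ran from 0 to 100% with a median of 32.1%. It was at least 90% in 56 windows and below 10% in 92. It already fell among windows below the limit, from 88.7% of lines in windows with 51 to 100 lines to 39.7% in the 272 windows with 251 to 500, and was 50.1% in those with over 10000.

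The groups were far apart by this measure. Ribosomal DNA had 99.9% of lines at 20 or more and the Sfi1 locus 97.9%, with medians of 1 reference copy of their 31-mers. The linked windows had 94.8%. The satellite family had 49.8% over all its lines but 20.6% in its median window, and 15 of its 53 windows were below 10%. It had 72.8% in the top window of chromosome 2, 80.2% in the window of Chl1 and 0.451% in a window of the chromosome 9 array at Gm10721. Within that array the highest was 45.2%. The X/Y end family had 29.0%, with a median window of 0.237%, and 31 of its 50 windows were below 10%. The second family of chromosome 6 had 16.9%, the Rn4.5s array 7.08% and telomere windows 6.07%. A median of 2 or more reference copies was found for the 31-mers of 187 windows (68.8%), against 15.1% of 2648 windows sampled at regular steps along the genome.

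**Figure D3:**
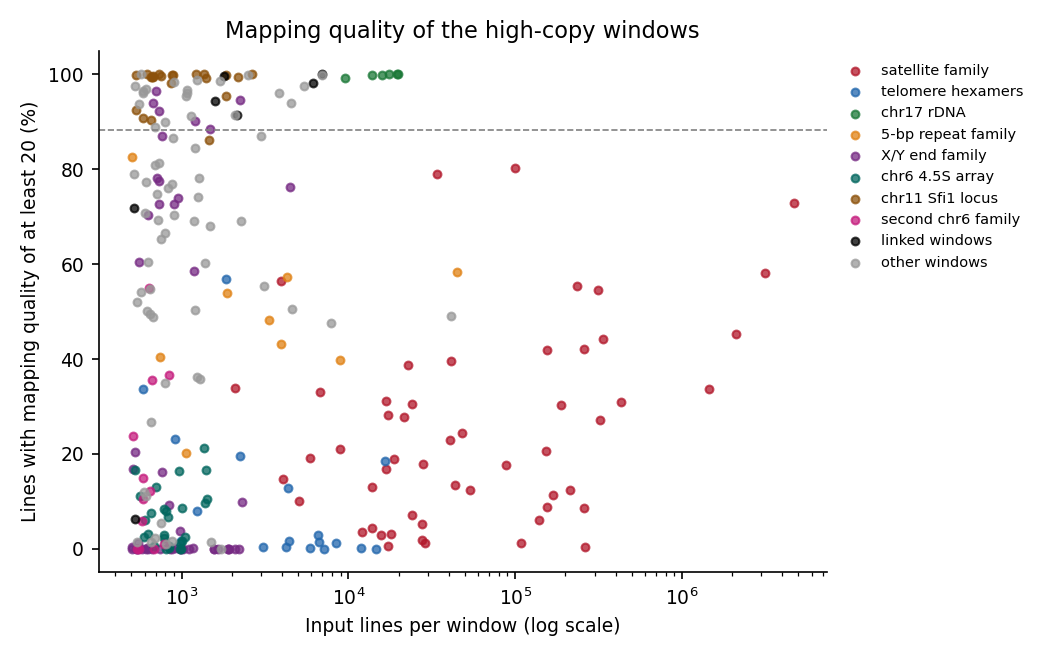
Share of lines with a mapping quality of at least 20 (%) against input lines per window (log scale), 1 point per high-copy window, coloured by group, with a dashed line at the 88.3% of all other windows. Ribosomal DNA windows lie at 99.2% or more and Sfi1 windows at 86.2% or more, Rn4.5s windows lie at 21.1% or less, telomere windows run from 0 to 57.0% with a median of 1.67%, and satellite windows spread from 0.451% to 80.2%.

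Strand balance was even in sum, with 49.93% of the lines of high-copy windows on the plus strand and 50.0% elsewhere. Both mates of a pair were counted, and 97.9% of pairs with both mates in high-copy windows lay within 1000 bp on opposite strands. A sum near 50% therefore follows from the read pairs. The share of 1 window also depends on which mates lie in neighbouring windows, and that part was not tested. By window, 188 of 272 (69.1%) had 45 to 55% plus lines, against 72.4% of the windows with 251 to 500 lines, the next lower range. The highest plus shares were 89.3% in chrX:4136001-4137000, 1 of the linked windows, and 88.8% in chr16:11143001-11144000, in an intron of Zc3h7a. The lowest was 17.6%, in chr12:3110001-3111000. That window had 41392 lines, aligned in part to the 234-bp unit and adjoins the satellite window of chromosome 12, which had 54.2%. In the Gm10800 locus the top window had 37.7% and the one before it 68.0%. Outside 45 to 55% lay 5 of the 7 linked windows, 26 of 53 in the satellite family, 4 of 9 in the 5-bp repeat family, 9 of 22 at the Sfi1 locus and 24 of the 68 other windows. The shares were lower for telomere windows (4 of 18), the second family of chromosome 6 (2 of 12), the X/Y end family (7 of 50) and the Rn4.5s array (3 of 27), and none of the 6 ribosomal DNA windows lay outside.

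Lines that repeat an identical position were also uneven between groups. The high-copy windows had 10.8 lines per distinct position, which is 1 combination of chromosome, start, end and strand, against 1.03 elsewhere. The satellite family had 13.0 in sum, 76.0 in the top window and a median of 2.54. Ribosomal DNA had 3.38 and the linked windows 3.80. Values from 1.21 to 1.64 were found for the Rn4.5s array, the X/Y end family, the second chromosome 6 family, the 5-bp repeat family, the Sfi1 locus and the telomere windows. Outside the satellite family and ribosomal DNA, 19 windows had over 2.5 lines per distinct position, all of them linked or other windows. Of these, 15 had a median of 1 reference copy and 12 had at least 90% of lines at a mapping quality of 20.

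**Figure D4:**
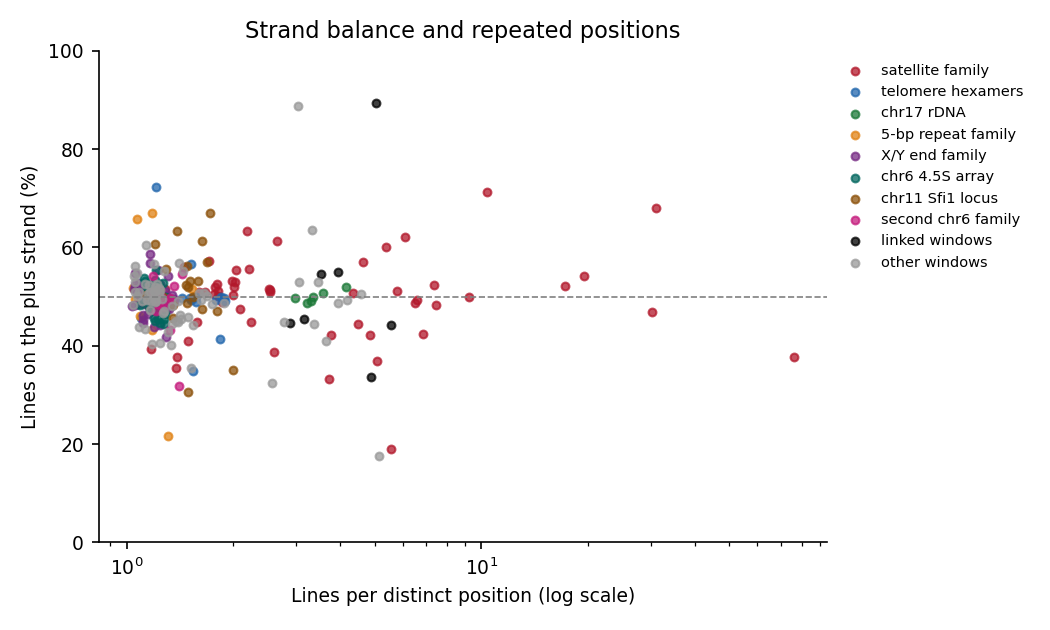
Share of lines on the plus strand (%) against lines per distinct position (log scale), 1 point per high-copy window, coloured by group, with a dashed line at 50%. Most windows lie near 50% and below 2.5 lines per position, ribosomal DNA lies between 2.98 and 4.16, and the satellite windows reach 76.0.

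Both mates lay in high-copy windows for 7962968 read pairs, and 99.0% of these were on 1 chromosome and 97.9% within 1000 bp on opposite strands. Of the pairs with no mate in such a window 91.7% were on 1 chromosome. Pairs with 1 mate in a high-copy window numbered 21360, of which 34.7% were on 1 chromosome and 29.4% within 1000 bp on opposite strands. The median fragment was 231 bp in the satellite family, 253 bp for pairs with no mate in a high-copy window, 188 bp in the 5-bp repeat family and 170 bp at telomere hexamers. It was 183 bp in the other windows. Fragments of up to 150 bp were 30.5% of those in the other windows, 27.9% in the 5-bp repeat family, 27.6% at telomere hexamers, 21.99% in the X/Y end family, 18.6% in the satellite family and 14.4% outside high-copy windows. The lowest shares were 9.50% at the Sfi1 locus and 4.98% in the second family of chromosome 6.

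Base composition and repeats also set the windows apart. The median GC content was 51.7%, against 41.4% over all windows, and 105 windows had at least 55%. Satellite windows had a median of 35.0% and ribosomal DNA 63.1%. As a share of all windows, high-copy windows were 0.00254% of those with 40 to 45% GC and 0.451% of those with 60 to 65%, whose medians were 2 and 82 lines. Soft-masked bases, which the reference marks as repeats, had a median of 49.4% against 26.5%. They reached at least 90% in 58 windows, or 21.3%, against 11.6% of all windows, and stayed under 10% in 28. Tandem arrays, in which at least 75% of bases matched at the best shift of 2 to 400 bp, made up 40 windows, or 14.7% (95% confidence interval 10.7 to 19.5%), against 0.0718% of every 100th window of the genome. That interval also counts windows as separate draws, which adjoining windows are not. Among these 40, 15 were satellite, 8 telomere and 8 X/Y end windows. Joined by 50 or more shared 31-mers, the 272 windows formed 98 families, of which 78 were single windows and the largest was the satellite family.

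HBO1 peaks overlapped 70 of the 272 windows, a share of 25.7% (95% confidence interval 20.6 to 31.4%), against 0.713% of all windows of the same chromosomes. The interval counts windows as separate draws, but they form 92 loci and 1 peak can cover several windows, so it is too narrow. The share of windows with a peak rose with lines below the limit too, from 0.459% of windows with 1 to 10 lines to 31.4% of those with 101 to 250, and was 31.3% of those with 251 to 500. It was 44.1% of the windows with 501 to 1000 lines, 15.7% of those with 1001 to 10000 and 0 of the 56 with more. The highest window with a peak had 2991 lines, and 86 high-copy windows had more than that. Windows with a peak had a median of 769.5 lines and windows without one 1856.

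The groups split in this respect. None of the 53 satellite windows overlapped a peak, which allows a share of up to 5.66% were they separate draws, though they lie at 7 loci. Telomere, ribosomal DNA, 5-bp repeat and linked windows had none either, over 18, 6, 9 and 7 windows, which allow up to 16.7, 50.0, 33.3 and 42.9%. The 0.713% of all windows lies below each of these limits, so the zeros do not set these groups apart from windows in general. The Rn4.5s array had peaks in 18 of its 27 windows (66.7%) and the X/Y end family in 29 of 50 (58.0%). The Sfi1 locus had them in 7 of 22 (31.8%), the second family of chromosome 6 in 1 of 12 and the other windows in 15 of 68 (22.1%). From the chromosome 9 array the nearest peak was 9792 bp away, and from the chromosome 2 locus 427540 bp.

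**Figure D5:**
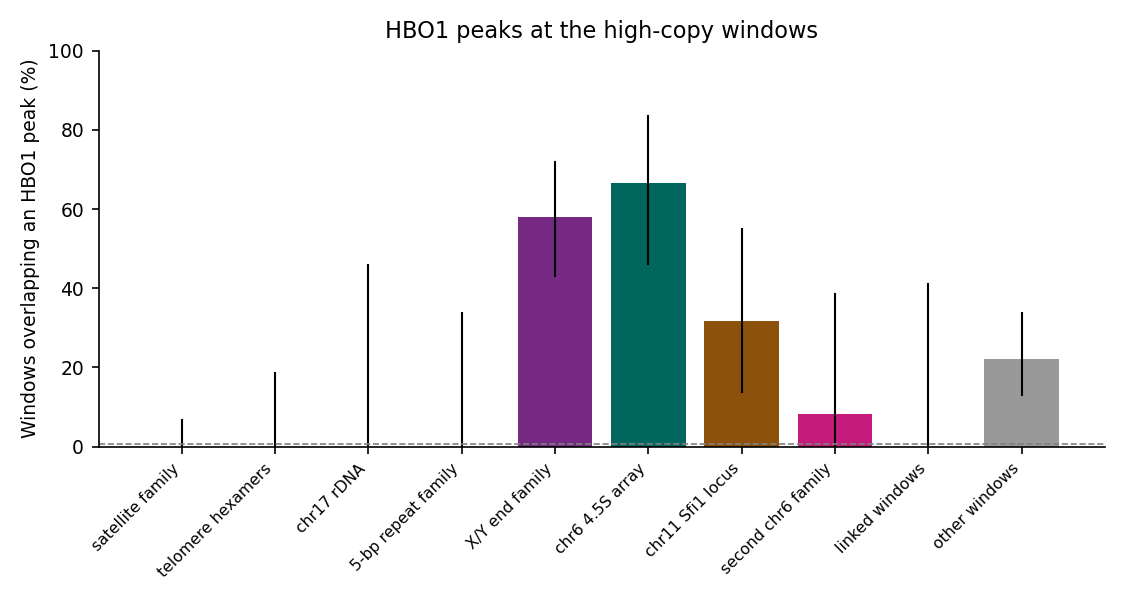
Share of high-copy windows that overlap an HBO1 peak (%) by group, with lines for the exact binomial 95% confidence interval and a dashed line at the 0.713% of all windows. The intervals count windows as separate draws, though windows of a group can share a locus or a peak. The Rn4.5s array (66.7%) and the X/Y end family (58.0%) stand highest, and 5 groups have no bar because none of their windows overlapped a peak.

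The overlapping peaks numbered 56, or 0.405% of the 13823 in the list. Their fold enrichment, the authors' ratio over the local background, had a median of 1.87, against 3.81 for the other peaks, and was under 2 for 57.1% against 5.79%. Their −log10 q went the other way, with a median of 24.2 against 6.98. Whether the input was the control of the peak caller is not stated. If it was, both contrasts depend on the choice of windows by input lines, and that part was not tested. Among the 20 peaks with the highest −log10 q, 13 overlapped a high-copy window. They were also wider, with a median of 470 bp against 367 bp.

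At the X/Y ends 18 peaks had fold enrichments of 1.51 to 11.5 with a median of 3.16. The peak with the highest −log10 q of the list, 1403, was chrY:90785521-90792637 at Gm47283, with a fold enrichment of 11.5. It overlapped 6 high-copy windows that held 4066 lines, while its summit lay in a window of 399 lines, below the limit. The second was chrX:170010596-170018005 at Gm21887, with a −log10 q of 1285, a fold enrichment of 10.0 and 7 windows with 5112 lines. Lines with a mapping quality of at least 20 made up at most 20.5% of any window under the peak on X and at most 60.4% under that on Y. The third, chrY:90738787-90739856, lay 13201 bp from Mid1-ps1, a pseudogene of Mid1, with a −log10 q of 720 and a fold enrichment of 5.61. Its windows, which were grouped with the other windows, had 793 and 569 lines, of which 89.9% and 100% had a mapping quality of at least 20. The other two of the 5 highest were again at Gm21887 and Gm47283, with 2539 and 2502 lines in their windows.

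Peaks in the Rn4.5s array had low fold enrichments, to which the same limit of the choice by input lines applies. The 19 peaks there had 1.19 to 1.62, with a median of 1.41, and a −log10 q from 2.43 to 19.9. In the Sfi1 locus the 6 peaks had fold enrichments of 1.20 to 2.19. Among the other windows, the peak with the highest −log10 q was that near Mid1-ps1 given above. The peak chr15:75086563-75087000 reached a −log10 q of 571 and a fold enrichment of 3.68 on a window of 2991 lines, 7469 bp from Gm28502. A peak in Pisd-ps2 on chromosome 17 had 3.60 and 144. A peak on chromosome 1 with a fold enrichment of 1.92, chr1:171064985-171066237, covered a window with 651 lines and the very end of the window before it. That earlier window, with 727 lines, held another peak with a fold enrichment of 1.82. Both windows hold tRNA genes beside Fcgr3, an Fc receptor gene. Windows with and without a peak differed in their line counts, as given above, and the part of the line count in the overlap was not tested.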

How the data were processed

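The input of Oct1 deficient mouse ESCs was described from the deposited positions of aligned reads, and the HBO1 peaks from the deposited list. Alignment of the read pairs by the authors used Novoalign 4.03.01 and the mm10 genome, and their peak calls used Macs2 with a q of 0.005 and a max-gap of 100. Removal of duplicate or multimapped reads is not given in the sources used here. Per the deposited input, each line gives the start and end of an aligned read or part of a read, a mapping quality score assigned by the aligner, and the strand. The deposited peak list gives the authors' fold enrichment, which is a ratio over the local background, −log10 p and −log10 q values, and a score that is 10 times the −log10 q. The summit offset, another deposited value, is in bp. No value was normalized here, and no count model was fitted.

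Lines were counted by midpoint in 1-kb windows from the start of each chromosome. The depth was 31973678 lines, 15963975 of them first reads, and at a median of 2 lines per window single ordinary windows are imprecise. Reference sequence and genes came from GRCm38, GENCODE vM21 and RefSeq. Tandem arrays were windows with at least 75% self-match at the best shift of 2 to 400 bp, families shared at least 50 31-mers, and linked windows were the largest set joined by at least 20 read pairs or split reads among windows in no other named group. Copies and alignments were found with edlib 1.3.9.post1 and Biopython 1.88. Counting used numpy 2.4.6 and numba 0.67.0 in Python 3.11.15, tables pandas 2.3.3, intervals scipy 1.17.1 and figures matplotlib 3.10.9. The array search, the copy count and the window count were tested on simulated data.

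The windows, the groups and the lists were chosen with earlier results of these data known, and the groups after the windows had been seen. Genes were named where they overlapped the 20 windows with the most lines (or were nearest to them), had at least 3 high-copy windows, or belonged to the 5 overlapping peaks with the highest −log10 q. Chl1 and all other genes named were chosen after their values were seen. From 1 input and 1 peak list no test between samples was possible, and no p-value was computed. Alternatives covered the limit, the window start, the placing of a line, mapping quality, identical positions, first reads, overlap and peak thresholds, and array and family rules. The reads of the ChIP samples and repeat names were not analysed here.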

Additional observations from a re-analysis of the deposited data

Results flagged for a closer look

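Chromosome M, the mitochondrial genome, lay outside the windows compared and held 2372 input lines over its 16299 bp, above the 3 that a count of 0 allows. None of its windows exceeded 500 lines, the highest having 198 and the lowest whole window 73, and 83.4% of its lines had a mapping quality of at least 20.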

How the results depend on the processing

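No paired analysis was possible because the values come from 1 input and 1 peak list. Of 31 alternatives 13 stayed within the interval of the value or, for a count, within 1.5 times of it, and 18 did not. The intervals take lines or windows as independent and are too narrow, so these counts depend on that. The number of windows, 272, was 544 at over 250 lines, 145 at over 1000 and 147 with lines of mapping quality 20 or more. Their share of lines, 51.6%, was 51.9% at over 250, 51.3% at over 1000, 51.6% with windows shifted by 500 bp, 37.5% at mapping quality 20 or more, 9.13% with identical positions counted once and 51.6% with first reads. The share overlapping a peak, 25.7%, was 9.66% at over 1000 lines and 32.0% without the satellite windows, the last an alternative added after seeing the data. The share of lines at mapping quality 20, 49.95%, was 94.5% at 1 or more, 7.94% at 60 or more, 32.1% as the median window and 29.2% with identical positions counted once. The share of tandem arrays, 14.7%, was 31.2% at a self-match of 60% and 6.25% at 90%. The 98 families became 151 with 200 shared 31-mers. The cause was not tested, except that limits on lines or quality keep other windows by construction.

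Repeated molecules and amplified copies cannot be told apart without molecular identifiers. Ordinary windows, at a median of 2 lines, limit ratios against them. Copies missing from the reference and the number of copies in the cells were not measured, so a line count is not a copy number. The peak list pools the ChIP samples in a way not stated, and their reads were not compared with the input. Satellite and centromere names rest on unit length and, for the 120-bp unit, the CENP-B box, since no repeat annotation was used.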
